A study of Mus musculus with 21 samples.

Results

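The comparison described here is that of mice trained on a treadmill for 6 weeks (Active group) with mice kept without training for the same time (Inactive group). Its members were the 14 of 21 libraries whose sample titles read trained (7) or inactive (7), each from 1 female C57BL/6NJ mouse, whose medial gastrocnemius was used and which was 10 weeks old when the groups were formed. Active mice ran 5 days a week, Inactive mice lived in standard cages, and no transgene or deletion is given for either group, and mice of both ran maximal tests on the same treadmill, the last of them 2 to 3 days before tissue collection, which followed a fast of several hours. Inactive mice were therefore not naive to the treadmill, and each library is a mixture of all cells of the muscle. The remaining 7 libraries, from mice that trained for 4 weeks and then rested for 2 weeks (Activity Reduction group), entered the models to share the estimate of spread. They also took part in the scaling and in the filter on low counts. In the models with the covariate described below, they helped to estimate its effect as well.

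The gastrocnemius of the mouse is a mostly fast muscle, whose fibres express the myosin heavy chain genes Myh4, Myh1 and Myh2, with few slow fibres that express Myh7. Endurance training is known to raise the mitochondrial content of such muscle, to add capillaries around its fibres and to remodel the matrix in which fibres, vessels and resident immune cells lie. The coactivator encoded by Ppargc1a and the nuclear receptor encoded by Esrra drive the mitochondrial genes, and VEGF acts on endothelial receptors such as that encoded by Kdr. Most of the transcripts that respond to a single bout of exercise return within days, so libraries taken later are usually read as the resting state of a trained muscle.

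The libraries held between 38482455 and 49211581 counts in the Active group and between 49284630 and 59785132 in the Inactive group, so that every Active library was smaller than every Inactive library. All 14 listed markers of skeletal muscle were tested and none was at 0, and they summed to at least 162000 CPM (counts scaled to the library size) in every library, with a median log2 fold change of -0.0026 between the groups. Transcripts of the liver were also present. Alb, which encodes serum albumin, was above 250 CPM in 8 of the 21 libraries, at 365 to 1155 CPM of their total counts, and below it in the other 13, at 71.1 to 161 CPM. The 8 libraries came from the mice that the labels call M304 to M311, and the 13 from those called M312 to M325. The former held 5 Active, 2 Activity Reduction and 1 Inactive mouse, and the latter 2 Active, 5 Activity Reduction and 6 Inactive mice (two-sided Fisher's exact test of Active and Inactive mice by class, p = 0.103). Of the variation of the first principal component of the 14 libraries, which held 29.1% of their variance, 90.1% lay between the classes and 22.5% between the groups. What the mouse numbers stand for is not given in the labels. Fold changes between the groups are therefore given without and with this Alb class as a covariate.

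**Figure D1:**
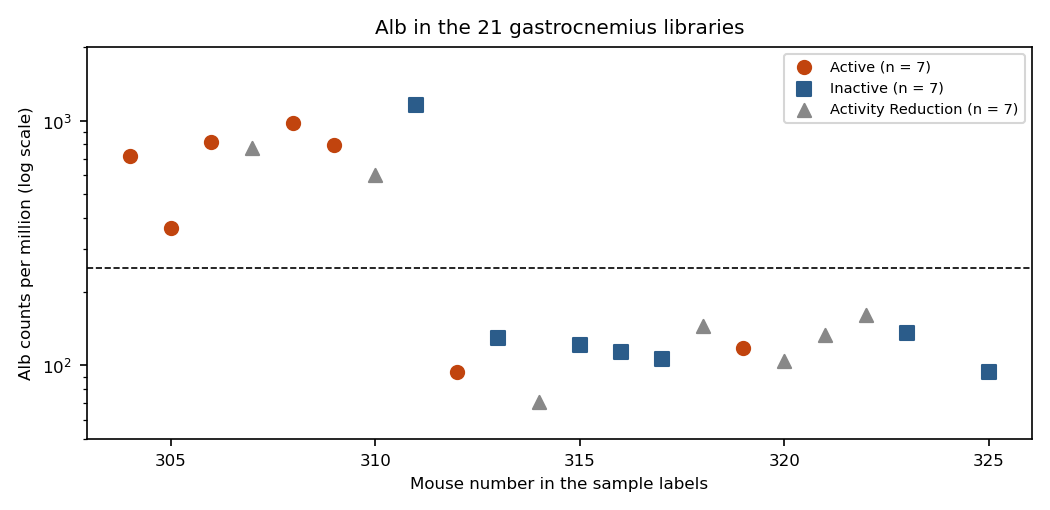
Alb level in CPM (log scale) of each of the 21 libraries against the mouse number in the labels, with the groups as symbols and the 250 CPM limit as a dashed line. The 8 libraries of mice M304 to M311 sit between 365 and 1155 CPM and those of mice M312 to M325 between 71.1 and 161 CPM, and only 1 Inactive library is among the former.

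With edgeR's quasi-likelihood test, 0 transcripts passed in the comparison without the Alb class (smallest Benjamini-Hochberg adjusted p = 0.159) and 0 with it (smallest 0.291), where a transcript passed at an adjusted p-value under 0.05 and a log2 fold change over 0.25 in either direction. Without adjustment, at p under 0.05, 997 of the 16129 transcripts tested (6.18%) were higher and 757 (4.69%) lower in the Active group, and with the class 684 (4.24%) and 689 (4.27%). DESeq2, the study's own tool, with the same thresholds passed 43 transcripts with higher expression (0.267%) and 16 with lower expression (0.0992%). With the class it passed 5 higher (0.031%) and 13 lower (0.0806%), of which 7 were among the former 59. DESeq2 gives no adjusted p-value to transcripts under a mean count that it sets itself, and this left 4065 transcripts without one, or 6567 with the class, among them 11 of the 59, for which no call was therefore made. When all p-values were adjusted together, without that filter, 28 higher (0.174%) and 13 lower (0.0806%) passed, and with the class 4 higher (0.0248%), Folr2, Rbm3, Mb and Fxyd6, and 4 lower (0.0248%), Exoc7, Gaa, Psmd10 and 2310001H17Rik. A median of 0.885 of the log2 fold change of the 59 was left with the class (0.516 to 1.21), but they were chosen on these same libraries, and their direction there is no independent support. The typical standard error of a log2 fold change grew from 0.103 without the class to 0.114 with it. Values of the 2 groups did not overlap for 36 transcripts, 8 with higher (0.0496%) and 28 with lower (0.174%) values in every Active mouse. The smallest p of an exact permutation test, 0.000583, was 0.244 after adjustment over all transcripts. With 7 mice against 7 no smaller p can arise, and every transcript without overlap has it. This test could therefore not single out any of them. Of all transcripts tested, 51.6% had a log2 fold change above 0 in each edgeR model. By the ratio of mean CPM, 51.4% were higher within the libraries under 250 CPM of Alb and 50.7% in those over it. Counts of list members stand beside these shares. Below, rose and fell are used of transcripts that passed with DESeq2, and every other value is a difference that did not pass.

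**Figure D2:**
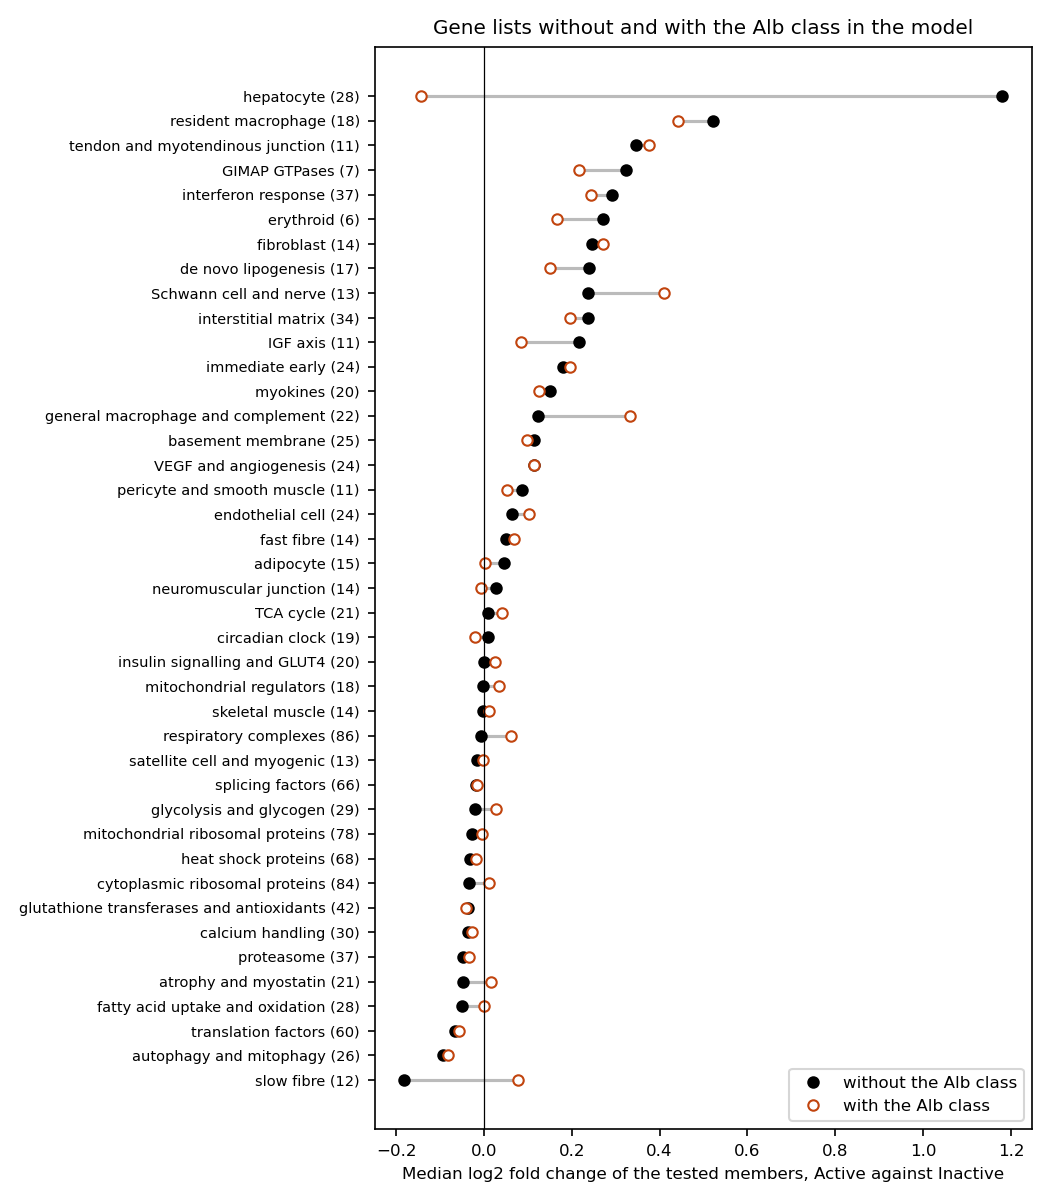
Median log2 fold change (Active against Inactive, edgeR) of the tested members of each gene list, with their number in parentheses, without the Alb class (filled) and with it (open). Hepatocyte markers, among them Alb itself, by which the class was set, move from 1.18 to -0.14. Resident macrophage and interferon response genes stay at 0.44 and 0.24 or higher. Among other cell types, Schwann cell and nerve markers are at 0.24 without and 0.41 with the class. Erythroid markers are at 0.27 and 0.17, and adipocyte markers at 0.05 and 0.0028.

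Genes of the interferon response were higher in the Active group. They encode guanylate-binding proteins and immunity-related GTPases that attack intracellular pathogens, and the machinery that cuts peptides and loads them onto class I molecules. Of 37 tested members, 35 were higher, with a median log2 fold change of 0.29 beside 0.01 for all transcripts. By unadjusted p under 0.05, 22 were higher (59.5%) and 0 lower, and DESeq2 passed 9 higher and 0 lower. With the Alb class, 34 were higher, the median was 0.24, 15 had an unadjusted p-value under 0.05 and DESeq2 passed 1, Gbp5, while 13 members, Tgtp1 among them, had no adjusted p-value. With all p-values adjusted together DESeq2 passed 5 without and 0 with the class, when the adjusted p was 0.0515 for Tgtp1 and 0.072 for Gbp5. Within the libraries under 250 CPM of Alb 30 were higher and in those over it 36, with 29 higher in both. The summed level of the list was 371 to 492 CPM in Active mice and 305.5 to 376 CPM in Inactive mice, which overlapped by a narrow range.

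Tgtp1 encodes an immunity-related GTPase and lies on chromosome 11 of GRCm39 from 48876154 to 48884999. Its lowest, median and highest values were 2.07, 4.05 and 4.51 CPM in the Active group and 1.08, 1.65 and 1.80 CPM in the Inactive group, and behind them lay 57 to 206 counts. No Active mouse overlapped with an Inactive mouse. Tgtp1 rose with DESeq2 (adjusted p = 0.00441), and edgeR gave a log2 fold change of 1.20 (standard error 0.258, adjusted p = 0.159), or 1.15 (standard error 0.289) with the Alb class. A neighbouring gene on the same chromosome has nearly the same sequence, over 97.4% of the transcript, so that reads of the pair cannot be fully told apart. Iigp1, another GTPase of this family, had 10.8, 14.2 and 17.8 CPM in Active and 6.03, 7.66 and 10.2 CPM in Inactive mice. The groups did not overlap here either, and Iigp1 rose with DESeq2 (adjusted p = 0.0191) with an edgeR log2 fold change of 0.86 (standard error 0.196), or 0.71 with the class. When edgeR was fitted on only the 14 libraries, Tgtp1, Iigp1 and the macrophage gene Folr2 were the 3 transcripts that passed. The Activity Reduction mice, absent from that fit, ranged from 1.07 to 5.43 CPM for Tgtp1 and from 6.49 to 18.4 CPM for Iigp1.

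Gbp5, on chromosome 3 from 142199739 to 142228105, encodes a guanylate-binding protein that acts in inflammasome assembly. Its lowest, median and highest values were 5.39, 7.25 and 8.16 CPM in Active and 3.46, 4.01 and 5.57 CPM in Inactive mice, with a small overlap. Gbp5 rose with DESeq2 without the class (adjusted p = 0.0137) and with it (adjusted p = 0.0499), and its edgeR log2 fold change was 0.67 (standard error 0.157) and 0.70 (standard error 0.183). Gbp3, Gbp4 and Gbp9, named after their values were seen, had edgeR log2 fold changes of 0.51, 0.81 and 0.43, which were 0.50, 0.93 and 0.44 with the class, and rose with DESeq2 without the class. Psmb8, on chromosome 17 from 34416690 to 34420428, encodes a catalytic subunit of the immunoproteasome, the form of the proteasome that serves antigen presentation. It had 3.93, 4.70 and 7.16 CPM in Active and 2.11, 3.16 and 4.00 CPM in Inactive mice, rose with DESeq2 (adjusted p = 0.0194) and had an edgeR log2 fold change of 0.63 (standard error 0.153), or 0.51 with the class. Its chromosomal neighbours Tap1, which carries peptides into the endoplasmic reticulum, and Psmb9, another immunoproteasome subunit, had log2 fold changes of 0.61 and 0.43, and 0.65 and 0.48 with the class. Of these 2, named after their values were seen, only Tap1 passed with DESeq2 (adjusted p = 0.0392). Ly6e, on chromosome 15 from 74826860 to 74847454, encodes a membrane protein induced by interferon and had the smallest edgeR p-value of all transcripts. Its values were 29.9, 36.7 and 39.5 CPM in Active and 25.9, 28.9 and 29.7 CPM in Inactive mice, with no overlap. Ly6e rose with DESeq2 without the class (adjusted p = 0.00441) and did not pass with it (adjusted p = 0.0787). Its edgeR log2 fold change of 0.32 (standard error 0.0591) was 0.21 (standard error 0.0538) with the class.

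The promoters of this list were searched for a DNA motif through which interferon acts. Interferon-regulated factors bind the interferon-stimulated response element, searched as its core GAAANNGAA on either strand and with overlapping matches kept. The windows were those of RefSeq (GRCm38.p6), from 250 bases before to 50 bases after each start. Of the 29 tested members with a window, 17 (58.6%) held the response element core, beside 8.73% of the 12376 tested genes with a window. RefSeq and GENCODE can place a start differently, so that a window may reach into an annotated transcript. The list holds genes chosen as members of the interferon response, so this share describes the list and not a difference between the groups. A match is a description of the letters and does not show that a factor was bound. The stretches below are shown for 3 of the genes described above that rose and hold a match. Each is given as 30 bases, 5′ to 3′ on the strand of the gene, with the matches in capitals.
Gbp5 response element core, chr3:142496759-142496788, plus strand: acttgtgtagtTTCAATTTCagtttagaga
Gbp3 overlapping response element cores, chr3:142559992-142560021, plus strand: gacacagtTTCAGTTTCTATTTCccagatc
Tgtp1 response element core, chr11:48992305-48992334, minus strand: ttccaggaatcGAAACTGAAacctacctga
In Gbp5 and Gbp3 the core is read on the opposite strand, and in Tgtp1 it lies in the direction of the gene. The stretch of Gbp3 lies within 2 of its 13 GENCODE transcripts, and those of Gbp5 and Tgtp1 within none.

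**Figure D3:**
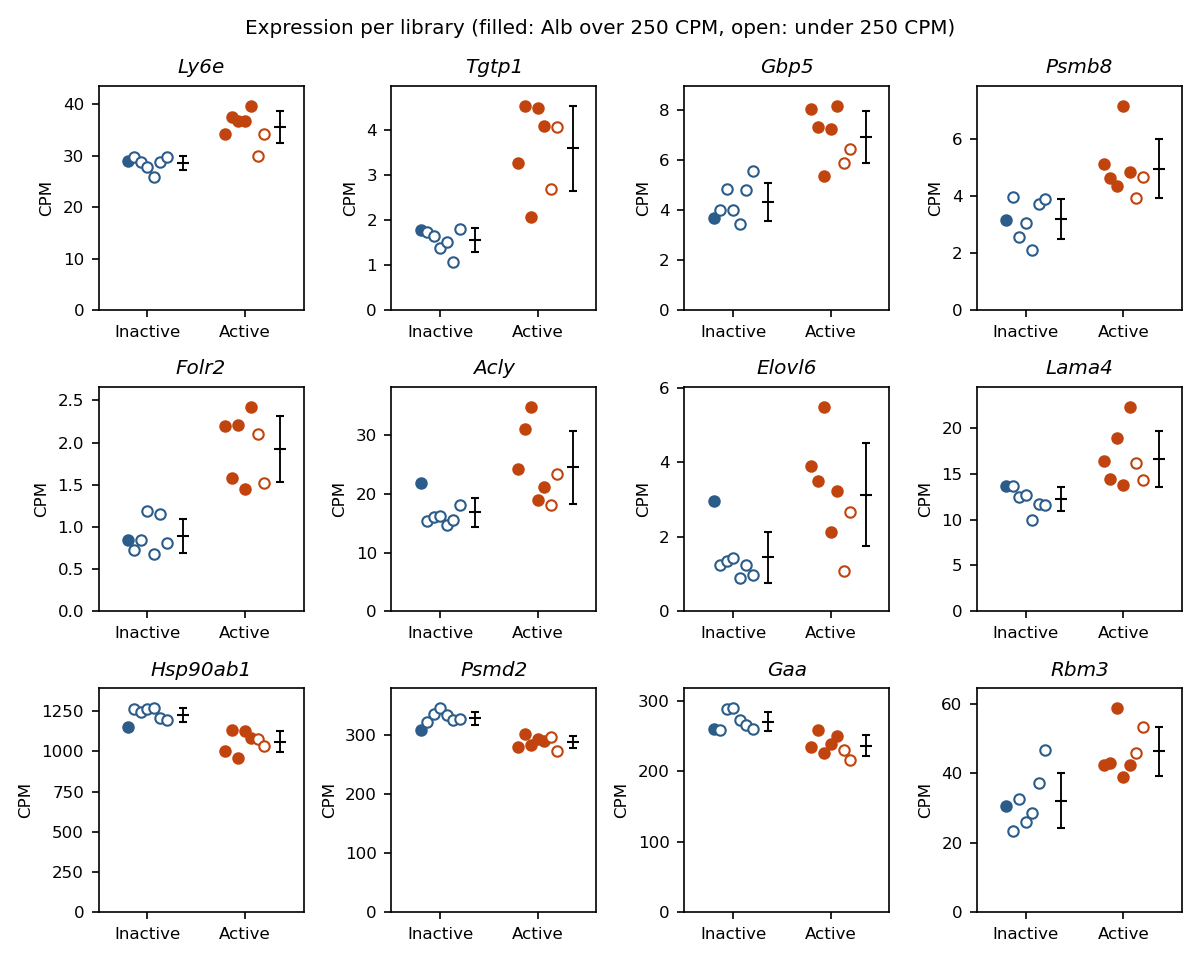
Expression (CPM, linear axes from 0) of 12 named genes in each of the 7 Inactive and 7 Active libraries, filled where Alb was over 250 CPM and open where it was under, with the mean and SD beside the points. Tgtp1, Folr2, Ly6e, Lama4, Hsp90ab1, Psmd2 and, by a margin close to 0, Gaa show no overlap between the groups. The single filled Inactive library is the highest of its group for Elovl6 and Acly.

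Markers of the resident macrophages of muscle were also higher in the Active group, among them scavenger and lectin receptors of the perivascular type. Of 18 tested markers, 16 were higher, with a median log2 fold change of 0.52, and 15 with the Alb class, with a median of 0.44. At an unadjusted p-value under 0.05, 10 were higher (55.6%) and 0 lower, and 9 and 0 with the class, and DESeq2 passed 3 without the class and 0 with it, where 9 and 13 markers had no adjusted p-value. With all p-values adjusted together 2 passed, and with the class 1, Folr2. The summed level of the list was 245 to 276 CPM in Active and 218 to 286 CPM in Inactive mice, so that the sum, which its abundant members set, overlapped throughout. Of 22 general macrophage and complement genes, 18 were higher with a median of 0.12, and 19 with a median of 0.33 with the class, and 1 had an unadjusted p-value under 0.05 in each model. In bulk muscle, more cells of a type and more RNA of a gene in each cell cannot be told apart. Whether the macrophages contributed to the values of the interferon genes was not tested.

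Folr2, on chromosome 7 from 101489195 to 101506401, encodes a folate receptor of resident macrophages. Its lowest, median and highest values were 1.45, 2.10 and 2.42 CPM in Active and 0.68, 0.84 and 1.19 CPM in Inactive mice, on 36 to 122 counts. The groups did not overlap. Folr2 rose with DESeq2 (adjusted p = 0.00571), and its edgeR log2 fold change was 1.11 (standard error 0.233) without and 1.26 (standard error 0.263) with the Alb class, where DESeq2's filter left it without an adjusted p-value (0.0211 with all p-values adjusted together). A gene on the opposite strand covers 61.2% of the exon length of Folr2, and the strand setting of the counting is not given in the sources used here. Cd209f, a lectin receptor counted at most 61 times in a library, had an edgeR log2 fold change of 0.92 (standard error 0.285), or 0.79 with the class, and F13a1, a transglutaminase made by these cells, had 0.67 (standard error 0.211), or 0.77. F13a1 did not pass with DESeq2 without the class, and Cd209f in both models and F13a1 with the class had no adjusted p-value. Lyve1, Cbr2 and Stab1, markers named after their values were seen, had edgeR log2 fold changes of 0.88, 0.46 and 0.33, and 0.95, 0.48 and 0.28 with the class. Cbr2 and Stab1 rose with DESeq2 without the class.

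The GIMAP genes encode GTPases of immune and endothelial cells that lie side by side on chromosome 6. All 7 tested members were higher, with a median log2 fold change of 0.32, or 0.22 with the Alb class, and 4 had an unadjusted p-value under 0.05, or 3 with the class. Gimap6 had 10.3, 11.7 and 12.4 CPM in Active and 8.61, 9.64 and 10.4 CPM in Inactive mice, which overlapped by a narrow range. Gimap6 rose with DESeq2 (adjusted p = 0.0142), with an edgeR log2 fold change of 0.29 (standard error 0.0620), or 0.25 with the class. Lymphocyte markers were mostly too low to be tested, since 2 of the 14 listed passed the filter, and both of these were lower in the Active group in both models, without passing.

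Genes of the extracellular matrix were higher in the Active group. Of 34 tested genes of the interstitial matrix, the collagens, proteoglycans and crosslinking enzymes between fibres, 29 were higher with a median log2 fold change of 0.24. Without adjustment, at p under 0.05, 13 were higher (38.2%) and 0 lower, and with the Alb class 8 were higher and 2 lower, with a median of 0.20. Of 25 basement membrane genes, which make and bind the sheet around fibres and vessels, 20 were higher with a median of 0.12, or 0.10 with the class, and 7 had an unadjusted p-value under 0.05, or 4 with the class. Within the libraries under 250 CPM of Alb 23 of the 34 and 19 of the 25 were higher, and in those over it 28 and 15. Higher in both classes were 19 and 11. An edgeR fit of the libraries under 250 CPM alone, with fewer mice, had 1 interstitial gene higher and 1 lower at an unadjusted p-value under 0.05. For basement membrane genes these numbers were 3 and 0. DESeq2 passed 2 of each list without the class and 0 with it, where 7 of each had no adjusted p-value. Markers of fibroblasts moved with them, since all 14 were higher both without (median 0.25) and with the class (median 0.27), and their summed level was 571 to 900 CPM in Active and 462 to 726 CPM in Inactive mice. All 11 tendon markers were higher as well in both models, with medians of 0.35 and 0.38, but the median was -0.28 within the libraries under 250 CPM of Alb and 1.44 in those over it. What part these cells had in the matrix genes was not tested.

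Lama4, on chromosome 10 from 38841141 to 38998403, encodes a laminin chain of the vascular basement membrane. Its lowest, median and highest values were 13.8, 16.1 and 22.2 CPM in Active and 10.0, 12.4 and 13.7 CPM in Inactive mice. The groups did not overlap, by a small margin. Lama4 rose with DESeq2 (adjusted p = 0.0137), and its edgeR log2 fold change was 0.44 (standard error 0.1002) without and 0.34 (standard error 0.106) with the Alb class. Itga6, an integrin chain that binds laminin, rose with DESeq2 (adjusted p = 0.0194), from 16.5 to 20.7 CPM in Inactive to 19.8 to 24.3 CPM in Active mice, with an edgeR log2 fold change of 0.28 (standard error 0.0641), or 0.24 with the class. Bgn, which encodes the proteoglycan biglycan, had 16.1, 19.3 and 28.0 CPM in Active and 10.6, 16.0 and 17.7 CPM in Inactive mice. It rose with DESeq2 (adjusted p = 0.0196) with an edgeR log2 fold change of 0.46 (standard error 0.116), or 0.37 with the class. Col6a1, a chain of collagen VI, rose likewise (DESeq2 adjusted p = 0.0392), with an edgeR log2 fold change of 0.40, or 0.32. Fndc1 had 0.45 and 0.38 and did not pass.

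Genes of blood vessel growth showed a smaller difference in the same direction. Of 24 tested genes of VEGF signalling and angiogenesis, 21 were higher with a median log2 fold change of 0.11, both without and with the Alb class. By unadjusted p under 0.05, 5 were higher (20.8%), or 2 with the class. Within the libraries under 250 CPM of Alb 17 were higher and in those over it 15, with 10 higher in both. Of 24 endothelial markers, 19 were higher with medians of 0.06 and 0.10, and 6 and 2 had an unadjusted p-value under 0.05. Nrp2, a coreceptor for VEGF, had 9.51, 11.8 and 12.4 CPM in Active and 8.04, 8.58 and 10.4 CPM in Inactive mice. Nrp2 rose with DESeq2 (adjusted p = 0.0304), with an edgeR log2 fold change of 0.33 (standard error 0.0821), or 0.23 with the class. Kdr, the main VEGF receptor of endothelium, had 32.4, 43.2 and 44.8 CPM in Active and 25.2, 35.0 and 46.2 CPM in Inactive mice. These ranges overlapped widely, and its log2 fold change of 0.29 (standard error 0.103), or 0.22 with the class, did not pass. Vegfa itself ranged from 200 to 255 CPM in Active and from 170 to 243 CPM in Inactive mice, its log2 fold change being 0.11 (standard error 0.0794), or 0.17 with the class, which did not pass.

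Genes of fatty acid synthesis were higher in the Active group, and this difference was smaller with the Alb class. Of 17 tested genes, 16 were higher with a median log2 fold change of 0.24, and 13 with a median of 0.15 with the class. At an unadjusted p-value under 0.05, 7 were higher (41.2%), or 4 with the class, and DESeq2 passed 3 without and 0 with it, where 2 had no adjusted p-value. Liver makes fatty acids from the same genes. What part liver RNA had in this difference was not tested, and the Alb class cannot be told apart from the mouse numbers. The 28 hepatocyte markers were all higher without the class (median 1.18), and 2 of 28 were higher with it (median -0.14). Alb, by which the class was set, is among them, so their shift follows in part from how the class was made. None of those markers was at 0, and their summed level was 255 to 2310 CPM in Active and 270 to 2630 CPM in Inactive mice, the highest of all being the 1 Inactive library over 250 CPM of Alb. Of 15 adipocyte markers, 10 were higher with a median of 0.05, and 8 with a median of 0.0028 with the class, at a summed level of 800 to 1080 CPM in Active and 755 to 1320 CPM in Inactive mice, and Ucp1 was at 0 in all 14 libraries. Within the libraries under 250 CPM of Alb, 15 of the 17 synthesis genes were higher with a median log2 ratio of 0.24 (2 mice against 6), and in those over it 12 with a median of 0.16 (5 against 1), with 10 higher in both.

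Acly, on chromosome 11 from 100367165 to 100440756, encodes the ATP citrate lyase that supplies acetyl-CoA for this synthesis. Its lowest, median and highest values were 18.2, 23.4 and 34.8 CPM in Active and 14.7, 16.0 and 21.9 CPM in Inactive mice. The highest Inactive value was that of the library over 250 CPM of Alb, and the groups overlapped at that library and, by a small margin, at Inactive replicate 7, at 18.21 CPM beside 18.16 CPM in Active replicate 6. Acly rose with DESeq2 (adjusted p = 0.00793), and its edgeR log2 fold change was 0.54 (standard error 0.120) without and 0.39 (standard error 0.118) with the class. Elovl6, an elongase of long-chain fatty acids on chromosome 3 from 129326004 to 129432144, had 1.08, 3.23 and 5.48 CPM in Active and 0.90, 1.25 and 2.96 CPM in Inactive mice. It rose with DESeq2 (adjusted p = 0.0196), with an edgeR log2 fold change of 1.11 (standard error 0.290), or 0.66 (standard error 0.255) with the class. Acss2, which makes acetyl-CoA from acetate, rose with DESeq2 (adjusted p = 0.0308) with a log2 fold change of 0.28, or 0.20 with the class. Fasn and Scd1, the fatty acid synthase and a desaturase, were named after their values were seen. They ranged from 10.2 to 86.4 and from 17.9 to 346 CPM within the Active group alone, and their log2 fold changes of 0.96 and 1.04, or 0.57 and 0.57 with the class, did not pass. In the promoter windows, 11 of 14 members with one (78.6%) held a CCAAT box, beside 42.0% of tested genes. The sterol response element TCACNCCAC was held by 1 (7.14%), beside 1.54%. These shares too describe the chosen list and not a difference between the groups.

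**Figure D4:**
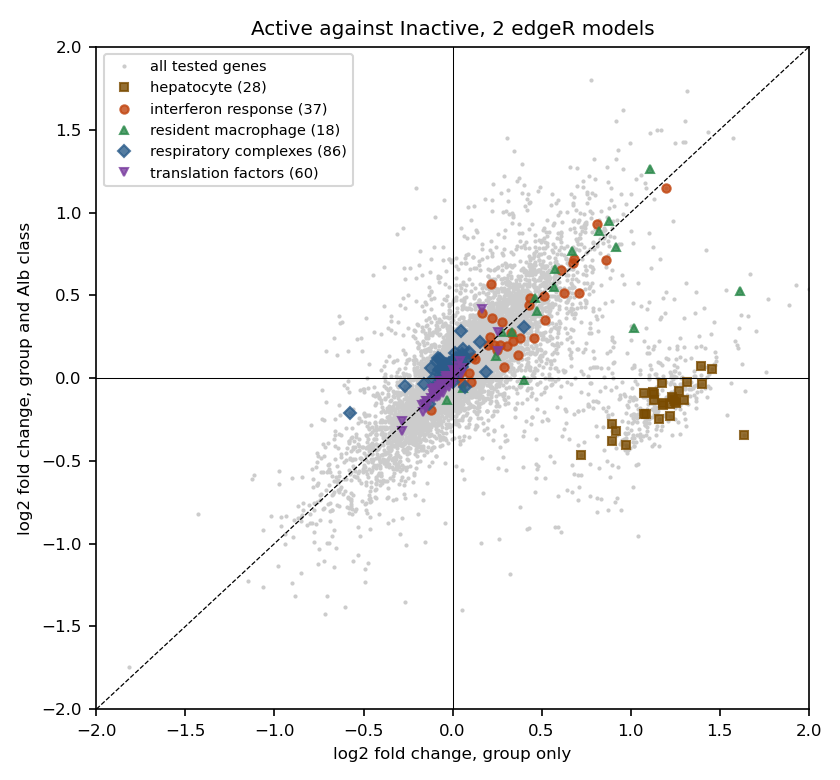
Log2 fold change (Active against Inactive, edgeR) of every tested gene in the model with group only against that in the model with group and Alb class, with 5 gene lists coloured, equality as a dashed line and 3 genes beyond the axes. Hepatocyte markers, among them Alb itself, fall from the right to near 0. Within 0.25 of equality lie 36 of 37 interferon response and 15 of 18 resident macrophage genes. So do 85 of 86 respiratory complex genes and all 60 translation factors, so this closeness is not particular to the immune lists. Vsig4, a macrophage receptor, goes from 1.61 to 0.53.

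Most translation factors and proteasome subunits were lower in the Active group, by small amounts. Of 60 tested translation factors, 47 were lower both without and with the Alb class, with medians of -0.07 and -0.06. Without adjustment, at p under 0.05, 22 were lower (36.7%) and 2 higher, and 16 and 2 with the class. Of 37 proteasome subunits, 32 were lower (median -0.05) and 30 with the class (median -0.03), with 8 and 7 at an unadjusted p-value under 0.05, and the 3 members higher at that level were the immunoproteasome subunits Psmb8, Psmb9 and Psmb10. Within the libraries under 250 CPM of Alb 14 translation factors and 5 proteasome subunits were higher, and in those over it 22 and 23, so that most proteasome subunits were then higher. Of 68 heat shock and chaperone genes, 42 were lower with a median of -0.03, of which 9 had an unadjusted p-value under 0.05, and 40 with the class with a median of -0.02, of which 8 did. They did not keep a direction within the classes, where 30 of 68 were higher under and 36 over 250 CPM of Alb. Cytoplasmic ribosomal proteins did not keep a direction, since 63 of 84 were lower without the class (median -0.03) and 31 with it (median 0.01). As all Active libraries were smaller than all Inactive libraries, library size moved with these differences, and its part was not tested.

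Hsp90ab1, on chromosome 17 from 45878552 to 45891949, encodes the constitutive HSP90 chaperone. Its lowest, median and highest values were 957, 1079 and 1132 CPM in Active and 1151, 1245 and 1266 CPM in Inactive mice. Every Active mouse was below every Inactive mouse. The edgeR log2 fold change was -0.21 (standard error 0.0434) without and -0.22 (standard error 0.0505) with the Alb class, and DESeq2's adjusted p-values were 0.00441 and 0.0247, but the change was smaller than the fold threshold. Psmd2, a subunit of the regulatory particle of the proteasome on chromosome 16 from 20470346 to 20485708, had 274, 290 and 303 CPM in Active and 308.9, 328 and 346 CPM in Inactive mice. The groups did not overlap. Its edgeR log2 fold change of -0.19 (standard error 0.0389), or -0.21 with the class, was also under the threshold. Up to 94.2% of its transcript matches annotated copies at about 96% identity, and the counting of such reads is not given in the sources used here. Ipo7, which imports ribosomal proteins and other cargo into the nucleus, had 125, 139 and 144 CPM in Active and 152, 161 and 174 CPM in Inactive mice, again with no overlap. Its log2 fold change was -0.24 (standard error 0.0521), or -0.25 with the class, with which it passed with DESeq2 (adjusted p = 0.0499). Ipo7 did not pass with the class when all p-values were adjusted together.

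Eef2, the elongation factor that moves the ribosome, and Eif4b, which helps to unwind the 5′ end of messages, were named after their values were seen. Eef2 had 1340, 1592 and 1674 CPM in Active and 1680, 1824 and 2105 CPM in Inactive mice, and Eif4b had 280, 332 and 343 CPM and 349, 386 and 429 CPM. In neither did the groups overlap. Both fell with DESeq2 without the Alb class (adjusted p = 0.0137 and 0.0191) and with it (both 0.0499). With all p-values adjusted together neither passed with the class. Their edgeR log2 fold changes were -0.27 and -0.29, or -0.29 and -0.32 with the class. Eif2b5, a subunit of the exchange factor of translation initiation, had -0.12 (standard error 0.0273), Eef1d, a subunit of the exchange factor of elongation, -0.14 (standard error 0.0349), and Qars, the glutaminyl-tRNA synthetase, -0.16 (standard error 0.0331), all under the fold threshold, and -0.12, -0.14 and -0.14 with the class. Rpl7a and Rps6, ribosomal proteins, had -0.14 and -0.12, or -0.18 and -0.12 with the class, and 43 annotated copies match the former. Cct4, Cct7 and Cct8, subunits of the chaperonin that folds actin and tubulin, were named after their values were seen, because they are 3 of the 28 transcripts with every Active mouse below every Inactive mouse. Their log2 fold changes were -0.16, -0.08 and -0.13, and -0.16, -0.07 and -0.12 with the class. Hsph1, a cochaperone of HSP70, and Psmd10, a chaperone of proteasome assembly, passed with DESeq2 only with the class (adjusted p = 0.0356 and 0.0313). With all p-values adjusted together Psmd10 passed with the class and Hsph1 did not. Their edgeR log2 fold changes went from -0.21 and -0.29 to -0.30 and -0.40.

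Most autophagy genes were lower as well. Of 26 tested autophagy and mitophagy genes, 24 were lower with a median log2 fold change of -0.09, and 23 with the Alb class with a median of -0.08. By unadjusted p under 0.05, 8 were lower (30.8%), or 7 with the class, and DESeq2 passed 0. In the libraries over 250 CPM of Alb, which held a single Inactive mouse, 16 of 26 were lower. Gabarap, a ubiquitin-like protein of the autophagosome membrane, had 78.0, 86.2 and 91.7 CPM in Active and 91.4, 95.9 and 104 CPM in Inactive mice. The groups met at their edges, and its log2 fold change was -0.17 (standard error 0.0445), or -0.19 with the class. Tfeb, the regulator of lysosomal genes, had -0.23 (standard error 0.0691), or -0.22 with the class, and did not pass. Gaa, the lysosomal enzyme that breaks down glycogen, on chromosome 11 from 119158708 to 119176525, had 215, 234 and 258.1 CPM in Active and 258.2, 266 and 289 CPM in Inactive mice. No mouse of one group crossed into the other, but the margin was close to 0. Gaa fell with DESeq2 only with the class (adjusted p = 0.0169), when its edgeR log2 fold change went from -0.19 (standard error 0.0572) to -0.27 (standard error 0.0584). Ctsd, a lysosomal protease named after its values were seen, ranged from 415 to 443 CPM in Active and from 447 to 511 CPM in Inactive mice, with a log2 fold change of -0.16 in both models. Sort1, a sorting receptor of the insulin-responsive glucose transporter vesicles, had -0.24 (standard error 0.0528), and with the class -0.25, when it passed with DESeq2 (adjusted p = 0.0499). It did not pass with the class when all p-values were adjusted together.

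Exoc7, a subunit of the exocyst that tethers vesicles to the plasma membrane, had 69.4, 78.6 and 93.0 CPM in Active and 91.0, 103 and 110 CPM in Inactive mice, which overlapped at the edges. It fell with DESeq2 without (adjusted p = 0.0137) and with the Alb class (adjusted p = 0.0169), with edgeR log2 fold changes of -0.31 (standard error 0.0714) and -0.37 (standard error 0.0794). The noncoding 2310001H17Rik, on chromosome 6 from 129091282 to 129216988, fell in both as well (adjusted p = 0.0141 and 0.0169), with -0.37 and -0.45. Rbm3, which encodes an RNA-binding protein induced by cold, lies on chromosome X from 8004213 to 8012119 and rose in both (adjusted p = 0.00793 and 0.0169). Its values were 39.0, 43.0 and 58.6 CPM in Active and 23.3, 30.6 and 46.6 CPM in Inactive mice, with an edgeR log2 fold change of 0.53 (standard error 0.119), or 0.59 (standard error 0.132) with the class. Zfpm1, a cofactor of GATA factors, and Wdr13 had 0.45 and 0.24, and 0.42 and 0.25 with the class, and Zfpm1 rose with DESeq2 without it. Blnk, a signalling adaptor known from B cells, had values of 1.33 to 1.83 CPM in Active and 1.86 to 3.00 CPM in Inactive mice and fell with DESeq2 without the class (adjusted p = 0.0145), with an edgeR log2 fold change of -0.64, or -0.61. Asb11, a substrate receptor of ubiquitin ligases in muscle, fell likewise (adjusted p = 0.0137), with -0.26, or -0.22. Trmt1l and the tetraspanin gene Cd63 had -0.24 and -0.20, and -0.24 and -0.18 with the class, under the fold threshold.

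The genes most often measured as signs of endurance training differed little. Of 86 subunits of the respiratory complexes, 38 were higher without the Alb class (median log2 fold change -0.01) and 74 with it (median 0.06), with 1 higher and 1 lower at an unadjusted p-value under 0.05, and 14 higher and 1 lower with the class. In the libraries under 250 CPM of Alb 81 of 86 were higher (median log2 ratio 0.08, 2 mice against 6), and in those over it 64 (median 0.03, 5 against 1). DESeq2 passed 0 of them in either model. Of 21 genes of the citrate cycle, 13 were higher without and 16 with the class, with medians of 0.01 and 0.04. Of 18 mitochondrial regulators, 9 and 11 were higher. Ppargc1a ranged from 30.6 to 36.5 CPM in Active and from 31.0 to 36.3 CPM in Inactive mice, and its log2 fold change was -0.01 (standard error 0.0674) and 0.09 with the class. Esrra had 0.13 (standard error 0.0628) and 0.19, and Cs, the citrate synthase, 0.03 (standard error 0.0292) and 0.06. Cox8a, a subunit of cytochrome oxidase, had 0.15 and 0.22, and Idh3a, a subunit of isocitrate dehydrogenase, 0.05 and 0.09. Cox7a2l, an assembly factor of respiratory supercomplexes, had -0.13 (standard error 0.0366) and -0.16. None of these passed.

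**Figure D5:**
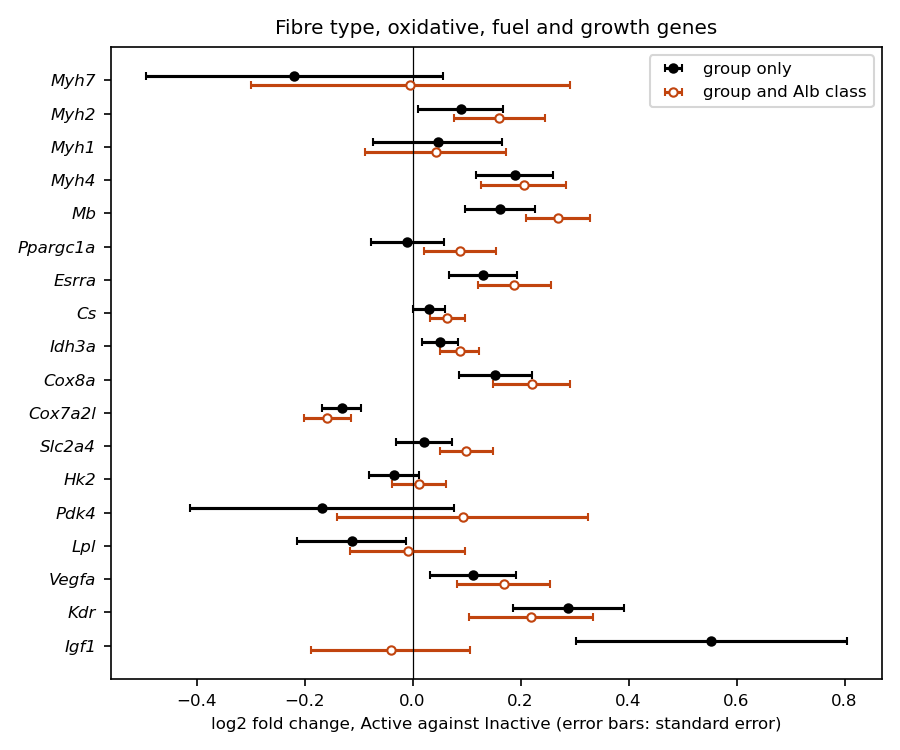
Log2 fold change (Active against Inactive, edgeR) with its standard error for 18 genes of fibre type, oxidative metabolism, fuel use, vessels and growth, without (filled) and with (open) the Alb class. Most lie within 0.25 of 0 in both models, and Igf1 moves from 0.55 to -0.04.

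Fibre types showed no change that passed without the Alb class. Myh4, the myosin of the fastest fibres, had 74350, 85780 and 99320 CPM in Active and 66550, 75100 and 80860 CPM in Inactive mice, with an edgeR log2 fold change of 0.19 (standard error 0.0712), or 0.21 with the class. Myh1 and Myh2 had 0.05 and 0.09, and 0.04 and 0.16 with the class. Myh7 ranged from 195 to 638 CPM in Active and from 469 to 683 CPM in Inactive mice, its log2 fold change being -0.22 (standard error 0.275), or -0.0039 with the class. The lowest value was that of Active replicate 3, in which the slow fibre list summed to 1163 CPM, while the other 13 libraries lay between 2013 and 2876 CPM. Of the 12 slow fibre genes, 3 were higher without and 8 with the class. Mb, which encodes the oxygen store myoglobin, had 1524, 1673 and 2046 CPM in Active and 1308, 1602 and 1657 CPM in Inactive mice. These overlapped, and Mb rose with DESeq2 only with the class (adjusted p = 0.0203), when its edgeR log2 fold change went from 0.16 (standard error 0.0654) to 0.27 (standard error 0.0592). Fxyd6, a regulator of the sodium pump, passed in the same way (adjusted p = 0.0256), with 0.20 and 0.36. The exons of Mb overlap those of other genes on the opposite strand over up to 18.1% of their length.

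None of the genes of fuel use and growth named here passed in the fits of all 21 libraries, although several kept a difference of more than 2 standard errors in both models. Slc2a4, the GLUT4 glucose transporter, ranged from 446 to 521 CPM in Active and from 438 to 524 CPM in Inactive mice, and its log2 fold change was 0.02 (standard error 0.0516), or 0.10 with the Alb class. Hk2, Pdk4 and Lpl, which phosphorylate glucose, brake its oxidation and release fatty acids from lipoproteins, had -0.03, -0.17 and -0.11, and 0.01, 0.09 and -0.01 with the class. Akt2, a kinase of insulin signalling, had -0.12 (standard error 0.0366), or -0.13, without passing. Of 28 genes of fatty acid uptake and oxidation, 7 were higher without and 14 with the class, and 0 had an unadjusted p-value under 0.05 in either model. Within the libraries under 250 CPM of Alb 17 of these 28 were higher, and in those over it 2. Of 11 genes of the insulin-like growth factor axis, 10 were higher without and 8 with the class. Igf1, with 5.18, 11.4 and 13.8 CPM in Active and 4.70, 6.33 and 11.3 CPM in Inactive mice, had a log2 fold change of 0.55 (standard error 0.251), which was -0.04 with the class. Igfbp4 went from 0.67 (standard error 0.230) to 0.15. Liver is the main source of circulating IGF-1, and in both genes the highest Inactive value was that of the library over 250 CPM of Alb. What part liver RNA had in either gene was not tested, and the class cannot be told apart from the mouse numbers. Igfbp5, a binding protein made in muscle itself, had 235, 283 and 394 CPM in Active and 356, 411 and 553 CPM in Inactive mice, with -0.57 (standard error 0.164), or -0.61 with the class. Its groups overlapped, and in the fits of all 21 libraries it did not pass with DESeq2. Foxo4, a transcription factor of the atrophy genes, had -0.14 in both models, Myod1, a regulator of myogenesis, -0.39 and -0.40, and Rora, a nuclear receptor of the circadian clock, -0.17 and -0.13, and none of them passed. Of 24 immediate early genes, 20 were higher without the class (median 0.18) and 22 with it (median 0.20). At an unadjusted p-value under 0.05, 2 were higher (8.33%) and 0 lower in each model. Of all transcripts, 6.18% were higher at that level without the class and 4.24% with it. DESeq2 passed 0 in either model, where 4 and 10 had no adjusted p-value.

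The study named 17 transcripts as changed in the Active group, chosen on these same libraries, so that their direction is no independent evidence. All 17 had an unadjusted edgeR p-value under 0.05 in the listed direction, without and with the Alb class, 13 of them higher and 4 lower, and 12 passed with DESeq2 without the class and 0 with it. Of the 17, 6 had no adjusted p-value with the class, and with all p-values adjusted together 1, Folr2, passed. Those not yet described were Gfpt2, an isoform of the rate-limiting enzyme of hexosamine synthesis, with a log2 fold change of 0.61, or 0.53 with the class, Il1r1, the interleukin-1 receptor, with 0.47, or 0.37, Rassf2 with 0.57, or 0.54, and Spred1, an inhibitor of Ras signalling, with 0.36, or 0.24. Il1r1 ranged from 4.06 to 6.11 CPM in Active and from 2.83 to 3.85 CPM in Inactive mice, with no overlap. Those lower were Ctxn3 with -0.46, or -0.45, Dglucy, an enzyme of D-glutamate breakdown, with -0.36, or -0.37, and Gstp2, a glutathione transferase, with -0.34, or -0.27. Ctxn3 ranged from 15.6 to 21.8 CPM in Active and from 21.9 to 39.8 CPM in Inactive mice, again with no overlap. Gstp1, whose transcript is the same as that of Gstp2 over 78.2% of its length, had -0.18 (standard error 0.0421), or -0.22 with the class, so that reads of the pair cannot be fully told apart. Genes annotated on the opposite strand also cover 30.4% of the exon length of Eif4b, 29.9% of Hsp90ab1, 29.6% of Esrra, 24.6% of Myh7, 23.5% of 2310001H17Rik, 22.9% of Idh3a, 21.7% of Rpl7a and 21.4% of Sort1, and a gene on the same strand covers 29.2% of Ctsd, so that the values of these genes carry the same uncertainty as Folr2.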

How the data were processed

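Poly(A) RNA of the gastrocnemius was sequenced in 21 female mice. Per the labels and methods, the authors used fastp for trimming, STAR for alignment to GRCm39 and featureCounts for counting, and the deposited values are raw counts per gene. Versions, annotation and the strand setting are not given in the sources used here. Another table, whose name speaks of normalization, was identical in all 857913 values and was not used. Counts of 16129 of 40853 genes passed edgeR's filter on low counts and were tested with edgeR 4.0.16 (TMM, quasi-likelihood) over all 21 libraries, group only and then with the Alb class (limit 250 CPM). DESeq2 1.42.0 was run on the same genes, and an adjusted p-value it left missing was kept missing. Levels are TMM-scaled CPM, not corrected for length, except the Alb levels that set the class, which are CPM of the total counts. Each library came from a different mouse. The scripts were tested on simulated data. Genes were named by a rule: the 17 transcripts of the study, the 12 with the smallest p in each direction at a mean of at least 1 CPM, the 2 with the smallest p of each list, up to 10 that passed with the class, and fixed single genes. Members and lists were chosen with earlier results of these data known. Positions are from GENCODE on GRCm39. Alternatives were the tool, the libraries, scaling, filters, a replicate block and leaving out each mouse.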

Additional observations from a re-analysis of the deposited data

Results flagged for a closer look

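For each named gene, the highest or lowest mouse of a group of 7 was looked up that stood apart from the rest by Dixon's 95% criterion. Of 184 groups, 12 did, where chance flags about 1 in 20. Inactive replicate 1, the only Inactive library over 250 CPM of Alb, was the one in 6 of them. It was highest of its group for Alb, at 1120 TMM-scaled CPM with the next mouse at 137, for Elovl6 at 2.96 CPM (next 1.43), Igfbp4 at 47.1 CPM (next 24.4) and Igf1 at 11.3 CPM (next 7.48), and lowest for Tfeb at 84.7 CPM (next 106) and Fxyd6 at 39.6 CPM (next 49.3). Inactive replicate 5 was lowest for the matrix genes Bgn, at 10.6 CPM (next 14.9), and Col6a1, at 21.1 CPM (next 32.0). Inactive replicate 7 was highest for Ctxn3, at 39.7 CPM (next 27.2), and Inactive replicate 4 for Dglucy, at 28.9 CPM (next 21.3). Active replicate 4 was highest for Psmb8, at 7.16 CPM (next 5.13), and Active replicate 7 was lowest for Kdr, at 32.4 CPM (next 41.3).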

How the results depend on the processing

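The number of transcripts that passed moved most with the tool. It was 0 with edgeR on all libraries, 3 with edgeR on the 14 libraries alone, 59 with DESeq2 and 74 with DESeq2 on the 14. With the Alb class it was 0 with edgeR, 18 with DESeq2 and 17 with DESeq2 on the 14, and the cause was not tested. Without DESeq2's independent filtering, an alternative chosen after seeing the data, it was 41, and 8 with the class. With edgeR, leaving out 1 mouse at a time gave 0 to 1, namely Ly6e without Active replicate 6 and Rbm3 without Inactive replicate 7. With the class edgeR then gave 0. All fits that left out a mouse used edgeR, and DESeq2 was not repeated in this way. The number at an unadjusted p under 0.05, 1754, was 1351 to 2329 without 1 mouse, 2853 with no filter on low counts (more genes tested), 1047 with edgeR and 1089 with DESeq2 on the 14 libraries with the class, 1043 in only the libraries under 250 CPM of Alb and, an alternative chosen after seeing the data, 669 in those over it (fewer samples). Same-numbered mice of the groups were not paired, since the correlations of their deviations ran from -0.249 to 0.217 and 1 of 7 was closest to its own number. With a replicate block 0 passed and 2028 had an unadjusted p under 0.05, and with the Alb class 0 and 1205. Directions turned for the following genes, of which Alb itself set the class. In the order of edgeR with the Alb class, DESeq2 with it, the same tools on the 14 libraries, and only the libraries under 250 CPM, the log2 fold changes were -0.040, -0.044, -0.0603, -0.0653 and -0.14 for Igf1, 0.088, 0.085, 0.029, 0.026 and 0.012 for Ppargc1a, 0.012, 0.0093, 0.029, 0.027 and 0.024 for Hk2, 0.093, 0.090, 0.013, 0.0099 and 0.27 for Pdk4, and -0.22, -0.22, -0.31, -0.31 and -0.12 for Alb. With the replicate block and the class they were -0.11 for Igf1, 0.062 for Myh7, 0.095 for Ppargc1a and -0.37 for Alb, and with log2 Alb as a continuous covariate 0.067 for Ppargc1a, 0.00953 for Hk2 and 0.014 for Pdk4. In only the libraries over 250 CPM, with 1 Inactive mouse assumed to vary like the others, Vegfa had -0.00676, Igfbp4 -0.014, Tfeb 0.089, Myh1 -0.15, Ppargc1a 0.065, Hk2 0.046, Lpl 0.036, Myod1 0.26, Stab1 -0.027 and Alb -0.628. Leaving out 1 mouse at a time gave -0.0258 to 0.087 for Myh1, negative without Inactive replicate 2 or 7, -0.0384 to 0.0103 for Ppargc1a, positive without Active replicate 3 or 4 or Inactive replicate 7, and -0.00146 to 0.045 for Slc2a4, negative without Active replicate 7. Depth limits the genes near 1 CPM, such as Cd209f, which had as few as 14 counts in a library.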
